A study of Sus scrofa with 18 samples.

Results

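The transcripts described here are those of 10 genes that mark the endothelium of the liver, the cell layer that lines the hepatic sinusoids and vessels. The genes are CLDN5, PECAM1, CDH5, TEK, KDR, NOSTRIN, STAB2, LYVE1, CLEC4G and VWF. They were found in the value table by their platform symbol, and 8 of the 10 had a probe set, out of 12307 genes with a symbol on the array. These 8 genes had 9 probe sets of 25388 in all, since KDR had 2, and each gene was read from the brighter one, by the mean over 18 arrays. CDH5 (VE-cadherin, the adhesion molecule of endothelial junctions) and LYVE1 (a hyaluronan receptor of sinusoidal and lymphatic endothelium) had no listed probe set and were not analysed here.

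Livers came from 18 male crossbred pigs [Piétrain × (German Landrace × German Edelschwein)], with 6 pigs in each of 3 diet groups and 1 array per pig. Group CON received soybean extraction meal and 0% insect meal. The diet of group IM5 held 5% meal of Tenebrio molitor larvae, which took the place of 50% of the soybean meal. That of group IM10 held 10%, which took the place of 100%. The trial began at an age of 5 weeks, lasted 4 weeks and ended with slaughter on day 29. The diets also differed in added cellulose and in supplements of single amino acids, so insect meal and the rest of the diet cannot be told apart. The 6 pigs of a group were drawn at random from 10 pigs kept in pens of several animals. Which pig shared a pen with which is not given in the sources used here, and the tests treat all pigs as independent.

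Liver sinusoidal endothelial cells form a thin lining with open pores and no complete basement membrane, through which plasma reaches the hepatocytes. They clear waste macromolecules from the blood with scavenger receptors and lectins such as STAB2 and CLEC4G. Endothelial cells respond to vascular endothelial growth factor (VEGF) through KDR and to angiopoietins through TEK. CLDN5 and PECAM1 are junction proteins of endothelium, and VWF is a clotting protein that endothelium stores. Which vessels of the liver each transcript came from was not measured. The arrays were made from whole liver, in which fewer cells of a type and less RNA per cell cannot be told apart.

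Values are robust multi-array average (RMA) values on the log2 scale, on which a difference of 1 is a doubling. Groups are given as mean ± SD of 6 pigs, and differences as the difference of 2 group means with the standard error (SE) of limma, a linear model with a moderated variance fitted over all probe sets. A gene met the criteria where its group means differed by more than 1.2-fold, up or down, and its unadjusted limma p was under 0.05. The fold and p limits are those of the study's methods, which took the p from an unpaired two-sided test with equal variances, called the methods' t-test here, where limma is used instead. The adjusted p is the Benjamini-Hochberg value over all 25388 probe sets. The exact p is the two-sided exact permutation p of the difference of means over all 924 arrangements of 6 against 6 pigs, whose smallest value is 0.00216. Array medians lay between 5.05 and 5.15 and the correlation of any pair of arrays between 0.986 and 0.992, and no array stood apart on these measures.

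Of the 8 genes, CLDN5 was higher in both insect meal groups than in group CON, NOSTRIN was lowest in group IM5, and CLEC4G was lowest in group IM10. In IM10 against CON, 1 of the 8 genes met the criteria as higher (CLDN5), beside 1.27% of all probe sets, and 0 as lower, beside 0.800%. In IM5 against CON, 1 met them as higher (CLDN5), beside 1.12%, and 1 as lower (NOSTRIN), beside 0.804%. In IM10 against IM5, 1 met them as higher (NOSTRIN), beside 0.827%, and 0 as lower, beside 0.764%. No gene of the 8 had an adjusted p under 0.05 in limma, and neither had any of the other probe sets in these comparisons (0%). At an unadjusted limma p under 0.05 there were 2 of the 8 in each comparison, beside 6.07% of all probe sets in IM10 against CON, 5.72% in IM5 against CON and 5.40% in IM10 against IM5. With the methods' t-test 2, 1 and 2 of the 8 had an unadjusted p under 0.05, beside 6.09%, 5.64% and 5.86% of all probe sets in the same order, and again 0 an adjusted one. NOSTRIN in IM5 against CON did not meet the criteria with that test.

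**Figure D1:**
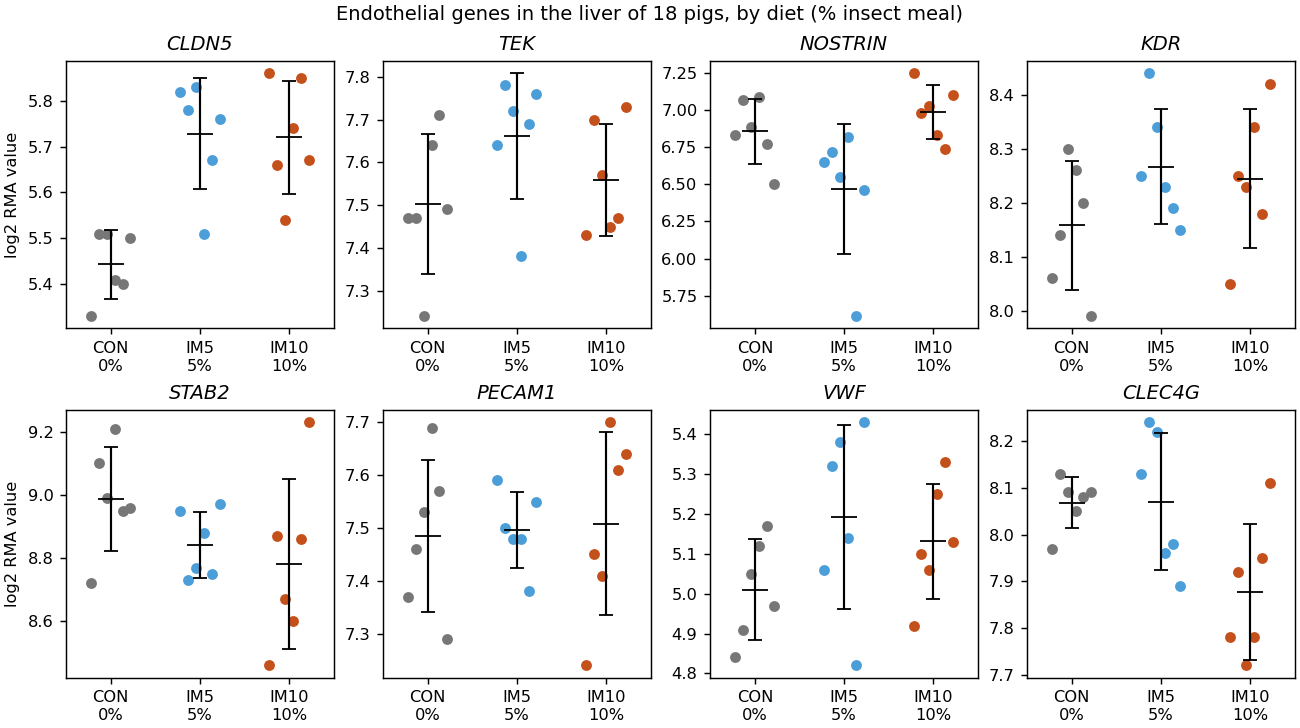
RMA values on the log2 scale (vertical axes, a separate range for each gene) of the 8 endothelial genes in each of 18 pigs, by diet group and percentage of insect meal. Points are pigs, and the black marks are the mean ± SD of 6 pigs. All 6 CLDN5 values of group IM10 lie above the highest of group CON (5.51), and 1 NOSTRIN value of group IM5 lies far below the rest (5.61).

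CLDN5 encodes claudin-5, a tight junction protein of endothelial cells. Its values in group CON had a lowest, median and highest of 5.33, 5.46 and 5.51. They were 5.51, 5.77 and 5.83 in group IM5. Group IM10 had 5.54, 5.71 and 5.86. All 6 pigs of group IM10 lay above every pig of group CON, while in group IM5 5 of 6 did and the lowest was equal to the highest of group CON. The means were 5.72 ± 0.12 in group IM10 and 5.44 ± 0.07 in group CON, a difference of 0.28 (SE 0.07, 1.21-fold, limma p = 0.00102, adjusted p = 0.553, exact p = 0.00216). Groups without overlap in this comparison made up 0.256% of all probe sets. The mean of 5.73 ± 0.12 in group IM5 was 0.29 above that in group CON (SE 0.07, 1.22-fold, limma p = 0.00102, adjusted p = 0.863, exact p = 0.00649). Both insect meal groups were set against the same 6 control pigs. Group IM10 and group IM5 differed by -0.0083, with a 95% interval of limma between -0.17 and 0.16 and an exact p of 0.931.

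The fold of CLDN5 lay close to the limit of 1.2, while its limma p stayed between 0.000156 and 0.00321 when any 1 pig was left out. In IM10 against CON the difference without CON replicate 1, IM10 replicate 1 or IM10 replicate 5 was 0.25, under the 1.2-fold limit, and in IM5 against CON it was 0.26 without CON replicate 1, again under that limit. Some smooth muscle markers also differed between these groups. Of 9 listed smooth muscle genes 6 were measured. In IM10 pigs 4 met the criteria as higher than in CON pigs (ACTG2, TAGLN, CNN1 and SYNPO2), beside 1.27% of all probe sets. In group IM5 1 met them as higher (TAGLN), beside 1.12%. The mean of the 6 genes per pig lay between 5.25 and 5.89 in group CON, between 5.42 and 7.36 in group IM5 and between 5.52 and 6.55 in group IM10. In group IM5 only replicate 6, at 7.36, lay above the range of group CON, and its CLDN5 value was 5.76. The other IM5 pigs had smooth muscle means between 5.42 and 5.86, inside that range, and CLDN5 values between 5.51 and 5.83. IM10 replicates 1, 2 and 5 had smooth muscle means of 6.39, 6.38 and 6.55, above the range of group CON, and CLDN5 values of 5.86, 5.66 and 5.85, among them the 2 highest of the group. IM10 replicates 3, 4 and 6 had smooth muscle means of 5.68, 5.82 and 5.52, inside the range of group CON, and CLDN5 values of 5.54, 5.74 and 5.67, above all pigs of group CON. The part of smooth muscle in the CLDN5 difference was not tested.

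PECAM1 is an adhesion molecule at endothelial junctions that platelets and white blood cells carry as well. It had the smallest share of its variance between diets of the 8 genes, 0.583%, against 64.1% for CLDN5. The values ran between 7.29 and 7.69 in group CON, between 7.38 and 7.59 in group IM5 and between 7.24 and 7.70 in group IM10. The range of group IM5 lay inside those of both other groups. PECAM1 differed by 0.023 between group IM10 and group CON, with a 95% interval between -0.17 and 0.21 and an exact p of 0.814. In IM5 against CON and in IM10 against IM5 the difference was 0.012 each time, with exact p-values of 0.874 and 0.898.

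TEK and KDR are the receptor tyrosine kinases through which endothelium responds to angiopoietins and to VEGF. TEK had a lowest, median and highest value of 7.24, 7.48 and 7.71 in group CON, of 7.38, 7.71 and 7.78 in group IM5 and of 7.43, 7.52 and 7.73 in group IM10. All 3 groups overlapped. In group IM5, 5 of the 6 pigs lay between 7.64 and 7.78, while replicate 4 had 7.38. The mean was 0.16 higher in group IM5 (7.66 ± 0.15) than in group CON (7.50 ± 0.16), which did not pass the test (95% interval -0.032 to 0.35, exact p = 0.119). Without IM5 replicate 4 this difference was 0.21 with a limma p of 0.0206, and without CON replicate 3 it was 0.11 with a limma p of 0.235. With 1 pig left out, the limma p was under 0.05 in 2 of 12 cases. Group IM10 (7.56 ± 0.13) differed by 0.055 from group CON (exact p = 0.541) and by -0.10 from group IM5 (exact p = 0.236), or by -0.16 without IM5 replicate 4 (limma p = 0.0475). In IM10 against IM5 the limma p was under 0.05 in 1 of 12 cases with 1 pig left out.

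KDR had values between 7.99 and 8.30 in group CON, between 8.15 and 8.44 in group IM5 and between 8.05 and 8.42 in group IM10. Its groups overlapped in every comparison. The means of 8.25 ± 0.13 in group IM10 and 8.16 ± 0.12 in group CON differed by 0.087 (95% interval -0.075 to 0.25, exact p = 0.255). The mean of 8.27 ± 0.11 in group IM5 was 0.11 above that in group CON (95% interval -0.050 to 0.27, exact p = 0.136). The second probe set of KDR, which had a lower mean and was not used for the counts, stood at 4.65 ± 0.24 in group IM5 and 4.38 ± 0.19 in group CON. Its difference of 0.28 met the criteria (1.21-fold, limma p = 0.027, exact p = 0.0584). It was 4.40 ± 0.39 in group IM10, 0.025 above group CON (exact p = 0.9). The probe sets of KDR had differences of the same sign in these comparisons but of unequal size, and their mean was 0.19 higher in IM5 pigs than in CON pigs with a limma p of 0.0446.

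NOSTRIN encodes a protein that binds the endothelial nitric oxide synthase NOS3 and moves it away from the cell membrane. Its values had a lowest, median and highest of 6.50, 6.86 and 7.09 in group CON, of 5.61, 6.60 and 6.82 in group IM5, and of 6.74, 7.01 and 7.25 in group IM10. In group IM5, replicate 5 stood at 5.61, far below the next pig at 6.46, and 5 of the 6 pigs of group IM10 lay above every pig of group IM5. The mean was 6.99 ± 0.18 in group IM10 and 6.47 ± 0.44 in group IM5, a difference of 0.52 (SE 0.17, 1.43-fold, limma p = 0.00706, adjusted p = 0.881, exact p = 0.00433). With any 1 pig left out this difference lay between 0.35 and 0.59 and met the criteria each time, and the lowest value was the one without IM5 replicate 5. No gene of the 8 had groups without overlap in this comparison, beside 0.213% of all probe sets, and likewise in IM5 against CON, beside 0.225%.

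Set against group CON (6.86 ± 0.22), NOSTRIN was 0.39 lower in group IM5 (SE 0.17, 1.31-fold, limma p = 0.0365, adjusted p = 0.863, exact p = 0.0433). This difference rested in part on IM5 replicate 5, without which it fell to -0.22 with a limma p of 0.0592. The limma p was also between 0.0539 and 0.0766 without CON replicate 2, 3 or 4 or IM5 replicate 6, and the methods' t-test gave 0.0797. Group IM10 was 0.13 above group CON (95% interval -0.098 to 0.36, exact p = 0.299). IM5 replicates 5 and 6 had the lowest NOSTRIN values of their group, 5.61 and 6.46, and also the lowest means of 11 T and NK cell genes, 4.49 and 4.50, the only pigs of all groups below 4.70. That list ran between 4.49 and 5.00 in group IM5 and between 4.80 and 5.25 in group CON, with 10 of 11 genes lower in group IM5, of which KLRK1 met the criteria. In IM10 against IM5 the list ran between 4.70 and 5.13 in group IM10, with 8 of 11 genes higher, and KLRK1 met the criteria as higher. Of all genes, 50.2% were higher in IM5 against CON and 48.7% in IM10 against IM5. The other groups were mixed in this respect. CON replicate 6 had the lowest NOSTRIN value of its group, 6.50, but the highest T and NK cell mean, 5.25. IM10 replicate 5 was lowest of its group in both, at 6.74 and 4.70. IM10 replicate 4, with a low NOSTRIN value of 6.83, had the highest T and NK cell mean of that group, 5.13. The part of T and NK cells in the NOSTRIN values was not tested.

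STAB2 is a scavenger receptor with which sinusoidal endothelium takes up hyaluronan and other waste molecules. Its values had a lowest, median and highest of 8.72, 8.98 and 9.21 in group CON, of 8.73, 8.83 and 8.97 in group IM5, and of 8.46, 8.77 and 9.23 in group IM10. Group IM10 held both the lowest and the highest of the 18 values, and the groups overlapped. The mean of 8.78 ± 0.27 in group IM10 was 0.21 below the 8.99 ± 0.16 of group CON, which did not pass the test (95% interval -0.45 to 0.041, exact p = 0.147). IM10 replicate 6 was the highest of its group at 9.23, and CON replicate 1 the lowest of its own at 8.72. Without IM10 replicate 6 the difference was -0.30, which met the criteria (limma p = 0.00904, exact p = 0.026), and without CON replicate 1 it was -0.26 (limma p = 0.0428, exact p = 0.0823). It fell to -0.14 without IM10 replicate 1 (exact permutation p = 0.286). In IM10 against CON the limma p was under 0.05 in 2 of 12 cases with 1 pig left out. STAB2 in group IM5 (8.84 ± 0.11) was 0.15 below group CON (95% interval -0.32 to 0.031, exact p = 0.108), and 0.20 below it without CON replicate 1 (exact p = 0.0216). This difference was -0.10 without CON replicate 4 (exact permutation p = 0.216). In IM5 against CON the limma p was under 0.05 in 1 of 12 cases with 1 pig left out.

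CLEC4G is a C-type lectin found mainly on sinusoidal endothelium of the liver and in lymph nodes. The lowest, median and highest values were 7.97, 8.09 and 8.13 in group CON, with 7.89, 8.06 and 8.24 in group IM5 and with 7.72, 7.85 and 8.11 in group IM10. The pigs of group CON lay close together, and 5 of the 6 pigs of group IM10 lay below all of them. The exception was IM10 replicate 6, at 8.11. CLEC4G was 7.88 ± 0.14 in group IM10 and 8.07 ± 0.05 in group CON, a difference of -0.19 (SE 0.07, 1.14-fold, limma p = 0.0161, adjusted p = 0.761, exact p = 0.0238). The limma p was between 0.00242 and 0.0427 with any 1 pig left out, but the fold was under 1.2, so the criteria were not met. Group IM5 (8.07 ± 0.15) differed from group CON by 0.0017 (95% interval -0.16 to 0.16, exact p = 1).

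In IM10 against IM5, CLEC4G was lower by a difference of -0.19 as well (SE 0.09, limma p = 0.039, exact p = 0.0519), and its limma p was 0.0539 after quantile normalization and between 0.012 and 0.0909 with 1 pig left out, under 0.05 in 6 of 12 cases. It was between 0.0686 and 0.0909 without IM5 replicate 1, 2 or 3 or IM10 replicate 1, 3 or 4. In the same comparison the 12 measured macrophage genes of 14 listed were all lower in group IM10, of which TIMD4 met the criteria. Of all genes, 48.7% were higher in that comparison. The macrophage mean per pig lay between 7.60 and 7.89 in group CON, between 7.71 and 8.01 in group IM5 and between 7.52 and 7.93 in group IM10. The 9 measured stellate cell genes of 13 listed were all lower in IM10 pigs than in IM5 pigs, and 0 met the criteria. Stellate cell means per pig were 7.16 to 7.38 in group CON, 7.23 to 7.45 in group IM5 and 7.16 to 7.41 in group IM10. The part of these cells in the CLEC4G values was not tested.

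VWF encodes von Willebrand factor, the clotting protein that endothelium and platelets store. It had a lowest, median and highest value of 4.84, 5.01 and 5.17 in group CON, of 4.82, 5.23 and 5.43 in group IM5, and of 4.92, 5.12 and 5.33 in group IM10. Group IM5 held the lowest value, in replicate 5, and the highest, in replicate 6. The mean was 0.12 higher in group IM10 (5.13 ± 0.14) than in group CON (5.01 ± 0.13), with a 95% interval between -0.049 and 0.29 and an exact p of 0.152. In group IM5 (5.19 ± 0.23) it was 0.18 above group CON (95% interval -0.035 to 0.40, exact p = 0.132), and 0.26 without IM5 replicate 5 (limma p = 0.0119). Of the platelet and megakaryocyte list 6 of 9 genes were measured and 0 met the criteria in any comparison.

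**Figure D2:**
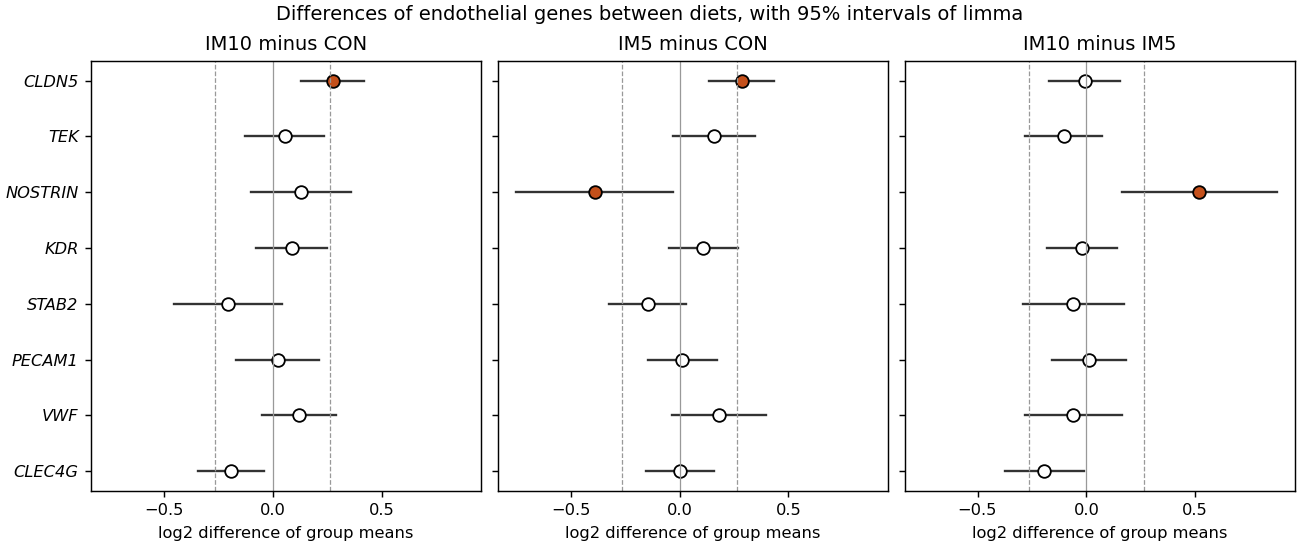
Difference of group means on the log2 scale (horizontal axes) of the 8 endothelial genes in the 3 comparisons, with the 95% interval of limma as a line. Filled points met the criteria, and dashed lines mark a 1.2-fold difference in either direction. CLDN5 (0.28 and 0.29) and NOSTRIN (-0.39 and 0.52) carry the filled points.

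Over all 3 diets, CLDN5 showed the smallest p of the 8 genes in a limma F test of the 3 group means (p = 0.000653, adjusted p = 0.701, permutation p = 0.00107). For NOSTRIN the limma p was 0.00936 (adjusted p = 0.817, permutation p = 0.00731) and for CLEC4G it was 0.0274 (adjusted p = 0.831, permutation p = 0.0249). These 3 of 8 genes with a limma p under 0.05 stand beside 5.98% of all probe sets. Against the percentage of insect meal, 2 of 8 genes had a slope with a limma p under 0.05, beside 5.32% of all probe sets. CLDN5 had a slope of 0.28 per 10% insect meal (SE 0.08, limma p = 0.00182, adjusted p = 0.732, permutation p = 0.00264) and CLEC4G one of -0.19 (SE 0.08, limma p = 0.0226, adjusted p = 0.913, permutation p = 0.0221). The slope of CLDN5 does not describe its levels at 5% and 10%, which differed by less than the spread between pigs. STAB2 had a slope of -0.21 (SE 0.10, limma p = 0.0592, permutation p = 0.0761). The count of genes with a slope was 1 without IM10 replicate 1, 3 or 4, and it was 3 without CON replicate 1 or IM10 replicate 6.

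The spread between pigs of a diet differed among the genes. The pooled SD within diets was 0.30 for NOSTRIN, 0.19 for STAB2 and 0.17 for VWF, and it lay between 0.11 and 0.15 for the other 5 genes. The median over all probe sets was 0.16. As a mean over the 8 genes centred on their diet means, IM5 replicate 5 was lowest (-0.20, with 1 of 8 genes above the diet mean) and IM10 replicate 6 was highest (0.15, 6 of 8). CON replicate 1 was below the mean of its diet in all 8 genes (-0.12).

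Within diets the 8 genes varied together only in part. Across the 18 pigs, with values centred on the diet mean, Pearson's r lay between -0.099 and 0.682 over the 28 pairs of genes, with a median of 0.259, and 23 pairs had an r above 0. The highest r was that of KDR and PECAM1 (r = 0.682, permutation p = 0.0048, adjusted p = 0.0672, Spearman's rho = 0.627, permutation p = 0.0113, adjusted p = 0.158). It was 0.722 without the 2 pigs farthest from the median of KDR. Within diets it was 0.884 in group CON, 0.030 in group IM5 and 0.795 in group IM10, so it did not hold among the 6 pigs of group IM5. PECAM1 and VWF had an r of 0.615 (permutation p = 0.00186, adjusted p = 0.0521, rho = 0.626, permutation p = 0.00477, adjusted p = 0.134), of 0.544 without the 2 farthest pigs, and of 0.747, 0.506 and 0.868 within groups CON, IM5 and IM10. Adjustment was over the 28 pairs, and 0 pairs had an adjusted permutation p under 0.05. CLDN5, the gene with the highest share of variance between diets, had an r between -0.062 and 0.395 with the other 7 genes.

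**Figure D3:**
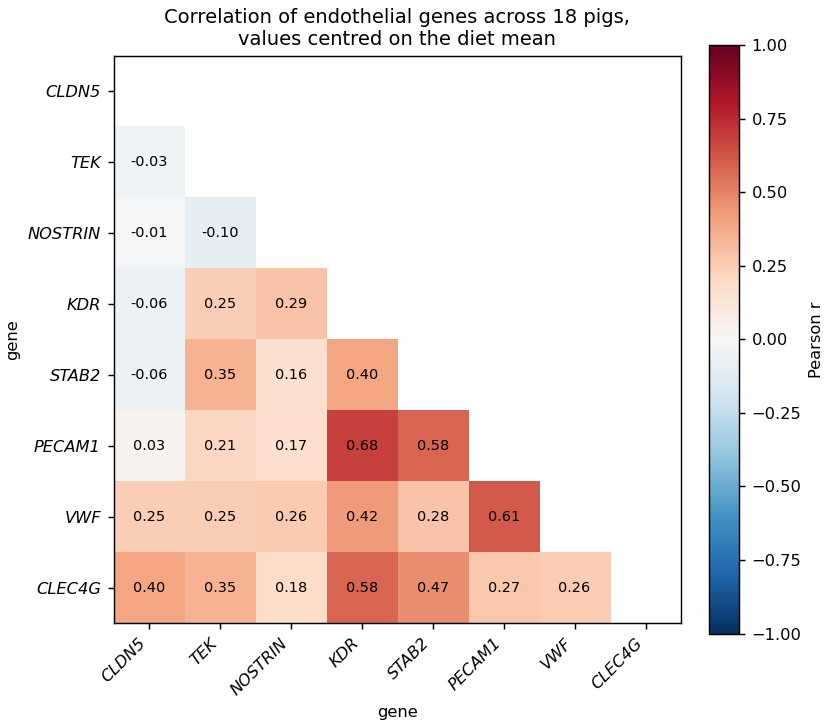
Pearson's r of each pair of the 8 endothelial genes across 18 pigs, after centring each gene on its diet mean. Colour and number give r, and the cells of KDR with PECAM1 (0.68) and PECAM1 with VWF (0.61) are the darkest, while the column of CLDN5 is pale except for VWF and CLEC4G.

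The mean centred profile of the 8 genes was set against 12299 other genes, as a description over 18 pigs whose arrays were normalized together. The genes most like it were SEC22C (r = 0.835), ABHD12B (0.832), LOC100511862 (0.79), LOC100157391 (0.788), SLITRK4 (0.784), RASGRP1 (0.775), SMIM8 (0.772) and RBM8A (0.77). None of these is in an endothelial list used here, and 0 met the criteria in any comparison. The median r was 0.0095 over all other genes. It was 0.127 for 22 pan-endothelial genes, 0.238 for 23 sinusoidal genes, 0.401 for 10 ligands and receptors of the VEGF and angiopoietin systems and 0.119 for 12 junction genes. It was below that of all genes for 8 nitric oxide genes (-0.0081), 8 genes of activated endothelium (-0.135) and 13 NOTCH and BMP9 genes (-0.196). The median was 0.223 for 3 lymphatic genes. For 5 erythroid genes it was 0.129, close to that of the pan-endothelial genes. The other cell type lists had medians between -0.332 (macrophage) and 0.016 (stellate cell). The endothelial genes most like the profile were ADGRF5 (r = 0.641), an adhesion receptor of endothelium and lung epithelium, F8 (0.635), the clotting factor made by sinusoidal endothelium, and FCGR2B (0.609), its receptor for immune complexes.

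Further genes tied to endothelium by cell type or by function were taken from 7 lists, which do not include the lymphatic genes. Some of them are expressed by other cells as well, as stated below for CD209, JUP, ID1, SMAD7 and ICAM1. Their counts in whole liver therefore do not describe endothelium alone. The 7 lists named 130 different genes, of which 91 were measured. In group IM5, 74 of the 91 were higher than in group CON and 17 lower, with a median difference of 0.058, beside a median of 0.0033 over all probe sets and 50.2% of all genes higher. In group IM10, 59 were higher and 32 lower than in group CON, with a median of 0.032, beside 48.9% of all genes higher. With array medians subtracted these counts of higher genes were 71 and 54. Only a few single genes met the criteria. These were 2 as higher in each of these comparisons, beside 1.12% of all probe sets in group IM5 and 1.27% in group IM10. None met them as lower (0), beside 0.804% and 0.800%. In IM10 against IM5, 38 of the 91 were higher and 53 lower, with a median of -0.043, beside 48.7% of all genes higher. There 3 met the criteria as higher, beside 0.827% of all probe sets, and 0 as lower, beside 0.764%. These shares of all genes and of all probe sets also stand beside the counts of single lists below. The counts of the 8 marker genes were 6 higher and 2 lower in both comparisons with group CON (medians 0.071 in group IM10 and 0.060 in group IM5), and 2 higher and 6 lower in IM10 against IM5 (median -0.041). More genes higher in IM5 against CON was not particular to endothelial lists. There 8 of 9 stellate cell genes (median 0.093), 9 of 12 macrophage genes (0.12) and 6 of 6 smooth muscle genes (0.30) were higher. Of hepatocyte genes 5 of 8 were higher (0.0083), and of T and NK cell genes 1 of 11 (-0.19).

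**Figure D4:**
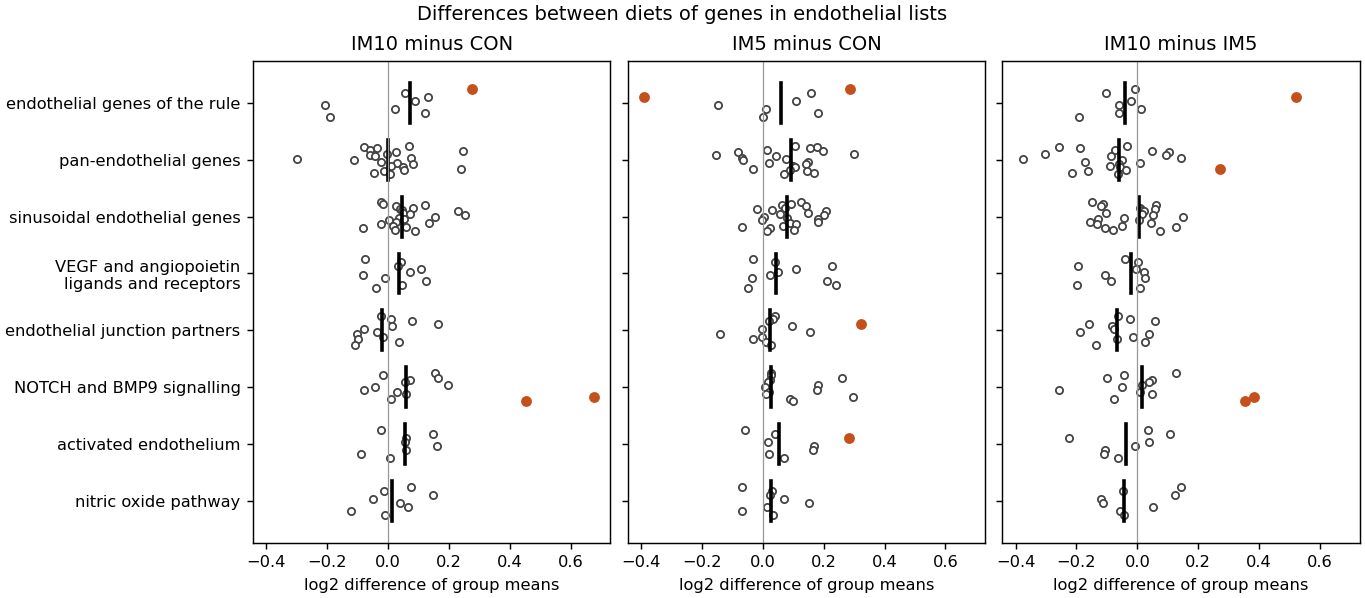
Difference of group means on the log2 scale (horizontal axes) of each measured gene of the endothelial lists in the 3 comparisons. Points are genes, filled where they met the criteria, and thick black lines are list medians. In IM5 minus CON the medians of the lists drawn lie right of 0, between 0.024 and 0.093 (lymphatic genes are not drawn), and filled points are few in all 3 panels.

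Among the sinusoidal genes, 23 of 30 were measured. In group IM10, 19 were higher than in group CON (median 0.047), and in group IM5, 20 were higher (median 0.078). In IM10 against IM5, 12 were higher (median 0.0067), and 0 met the criteria in any comparison. Those with the smallest p were CD209 (DC-SIGN, a lectin that dendritic cells and macrophages also carry), STAB1 (the scavenger receptor related to STAB2) and CRHBP (a binding protein of corticotropin-releasing hormone). CD209 was 4.12 ± 0.15 in group IM5 and 3.94 ± 0.18 in group CON (exact p = 0.0844). STAB1 was 7.57 ± 0.12 in group IM10 and 7.72 ± 0.15 in group IM5 (exact p = 0.0952), the direction that CLEC4G had in that comparison. CRHBP was 3.85 ± 0.21 in group IM5 and 3.67 ± 0.17 in group CON (exact p = 0.147).

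Of 37 pan-endothelial genes 22 were measured. In IM5 against CON 17 were higher (median 0.093), while in IM10 against CON 11 were higher and 11 lower, and the sign of that median turned with the scaling (0.0008 as deposited, -0.012 with array medians subtracted). In IM10 against IM5, 6 were higher and 16 lower (median -0.062). TAL1, a transcription factor of blood and endothelial precursors, was the only one to meet the criteria, at 4.96 ± 0.14 in group IM10 and 4.69 ± 0.23 in group IM5 (difference 0.27, limma p = 0.0206, exact p = 0.0541), and it did not meet them after quantile normalization. ENG and CD34 fell outside the naming rule and were chosen after their values were seen. ENG (endoglin, a co-receptor of bone morphogenetic proteins) was 9.24 ± 0.11 in group IM10 and 9.49 ± 0.17 in group IM5, a difference of -0.26 that was just under 1.2-fold (limma p = 0.00864, exact p = 0.0195). CD34, a surface sialomucin that vascular endothelium carries and sinusoidal endothelium mostly lacks, was 5.74 ± 0.10 in group IM10 and 5.49 ± 0.17 in group CON (difference 0.25, 1.19-fold, limma p = 0.0102, exact p = 0.0216).

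Of the ligands and receptors of the VEGF and angiopoietin systems, to which TEK and KDR belong, 10 of 14 were measured and 0 met the criteria. In group IM10, 6 were higher than in group CON, in group IM5 7 were, and 4 were higher in IM10 pigs than in IM5 pigs. ANGPT2, a ligand of TEK, was 4.88 ± 0.14 in group IM5 and 4.64 ± 0.17 in group CON (difference 0.24, limma p = 0.0159, exact p = 0.0195), and 4.69 ± 0.13 in group IM10 (-0.20 against IM5, exact p = 0.0346). TEK and its ligand ANGPT2 both had their highest group mean in group IM5, though for TEK the differences did not pass the test. VEGFD, a ligand of KDR and of the lymphatic receptor FLT4, was 5.77 ± 0.26 in group IM5 and 5.54 ± 0.18 in group CON (exact p = 0.115). ANGPT1, another ligand of TEK, was 3.73 ± 0.30 in group IM5 and 3.52 ± 0.19 in group CON (exact p = 0.175).

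Junction genes beside CLDN5 and PECAM1 were divided in direction. Of 17 listed 12 were measured, and in IM10 against CON 5 were higher and 7 lower (median -0.020). In IM5 against CON 8 were higher and 4 lower (median 0.024), and in IM10 against IM5 3 were higher and 9 lower (median -0.067). JUP (plakoglobin, which links cadherins to the cytoskeleton in epithelium and endothelium) met the criteria, at 7.43 ± 0.15 in group IM5 and 7.11 ± 0.22 in group CON (difference 0.32, 1.25-fold, limma p = 0.00676, exact p = 0.0238).

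Of 18 genes of NOTCH signalling and of the bone morphogenetic protein BMP9 pathway, 13 were measured. All 13 had a higher mean in group IM5 than in group CON (median 0.028), 11 of them with array medians subtracted, and 0 met the criteria. In IM10 against CON 10 were higher (median 0.058) and in IM10 against IM5 8 were (median 0.017). ID1 and SMAD7, a transcriptional regulator and an inhibitor that are targets of this pathway in many cell types including hepatocytes, met the criteria in both. ID1 was 6.69 ± 0.41 in group CON, 6.98 ± 0.42 in group IM5 and 7.36 ± 0.28 in group IM10 (0.68 against CON, exact p = 0.00216, and 0.38 against IM5, exact p = 0.0996). SMAD7 was 5.86 ± 0.24 in group CON, 5.96 ± 0.16 in group IM5 and 6.32 ± 0.21 in group IM10 (0.45 against CON, exact p = 0.00433, and 0.35 against IM5, exact p = 0.0108). With array medians subtracted ID1 no longer met the criteria in IM10 against IM5. The study also measured both genes by quantitative PCR in all pigs of each group. In IM10 against CON they were higher there too, by smaller folds than on its arrays, and neither difference was significant.

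The list of activated endothelium held 8 genes, all measured, of adhesion molecules and chemokines. In IM10 against CON 6 were higher (median 0.057), in IM5 against CON 7 (median 0.054), and in IM10 against IM5 3 (median -0.036). ICAM1, an adhesion molecule for white blood cells that hepatocytes and macrophages also express, met the criteria, at 6.87 ± 0.13 in group IM5 and 6.59 ± 0.16 in group CON (difference 0.28, 1.22-fold, limma p = 0.00475, exact p = 0.00866). It was 6.65 ± 0.18 in group IM10.

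The nitric oxide list, in which NOS3 is the partner of NOSTRIN, had 8 of 13 genes measured and 0 that met the criteria. In IM10 against CON 4 were higher (median 0.014), in IM5 against CON 6 (median 0.028), and in IM10 against IM5 3 (median -0.045). NOS3 was 5.33 ± 0.21 in group IM10 and 5.18 ± 0.13 in group IM5 (difference 0.15, exact p = 0.197), while NOSTRIN differed by 0.52 in the same comparison. NOSIP, which binds NOS3 as NOSTRIN does, was 6.31 ± 0.15 in group IM10 and 6.16 ± 0.09 in group CON (exact p = 0.0606). GUCY1A3, a subunit of the soluble guanylate cyclase that nitric oxide activates, was 6.06 ± 0.13 in group IM5 and 5.91 ± 0.12 in group CON (exact p = 0.0758).

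Markers of the remaining cell types in whole liver are given as counts. No hepatocyte gene met the criteria (8 of 12 measured), and their mean per pig lay between 11.28 and 11.35 in group CON, between 11.31 and 11.46 in group IM5 and between 11.26 and 11.36 in group IM10. The highest of these, 11.46, was IM5 replicate 5, the pig with the lowest NOSTRIN and VWF values, and it also had the highest macrophage mean, 8.01. Of the 8 hepatocyte genes TAT had the widest spread in group IM5, with values between 9.77 and 10.82 (SD 0.38). The part of TAT in that hepatocyte mean was not tested. Of the lymphatic list 3 of 6 were measured, all 3 with a lower mean in IM10 pigs than in CON pigs (median difference -0.22) and 2 with a lower mean in IM5 pigs than in CON pigs (median -0.24), and 0 met the criteria. Both medians were those of PROX1, whose mean in group CON was 9.21, beside 9.09 for the hepatocyte gene HNF4A. FLT4 stands in the sinusoidal list as well. The part of lymphatic endothelium in these values was not tested. Among 5 erythroid genes of 9 listed all had a higher mean in groups IM10 and IM5 than in group CON, and 0 met the criteria. Beside the genes already named, those that met the criteria were SOX9 of 5 measured cholangiocyte genes (higher in IM5 pigs than in CON pigs, though not with array medians subtracted), MSR1 of the macrophage genes (higher in IM5 pigs than in CON pigs), TIMD4 in another comparison (lower in IM10 pigs than in CON pigs, though not after quantile normalization) and CD5 of the T and NK cell genes (lower in IM10 pigs than in CON pigs). The arrays came without detection calls, so none of these markers could be called absent.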

How the data were processed

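Liver RNA of 18 pigs was hybridised to Affymetrix Porcine Gene Sense Target arrays, 1 array per pig. The deposited table holds log2 values from RMA, which the authors ran in Affymetrix Expression Console (versions not given in the sources used here). RMA subtracts background, brings the arrays to a common distribution and combines the probes of a probe set. RMA draws arrays together and compresses low values, so fold changes of dim probe sets are understated. The log base follows from the stated method. No detection calls were used, so low values have no background limit. The number of arrays and the spread between pigs limit the precision.

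Symbols were those of the platform annotation. Of 25388 probe sets, 13257 had 1 symbol, 427 several genes and 11704 none listed, and only the first kind was named. Genome coordinates and sequences are not given, because the build of the array annotation is not given in the sources used here.

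Groups were compared in pairs, each on its own 12 arrays and with no covariate, by limma 3.58.1 (R 4.3.3), and trends and the F test used all 18 arrays. Single genes were tested with exact permutation tests (SciPy 1.17.1). Correlations of gene pairs used 100000 permutations within diets, and trends and differences over 3 diets as many permutations of the diet labels. The scripts were tested on simulated data. Alternatives were quantile normalization, subtraction of array medians, leaving out dim probe sets, the mean of a gene's probe sets, the methods' t-test, 1 fit over all arrays, the replicate number as a block, and leaving out each pig in turn.

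All 8 measured marker genes are described. In each further endothelial list the genes that met the criteria were named, and otherwise up to 3 with the smallest p, and 8 genes were named for likeness to the mean profile. The marker genes and the 16 other lists were chosen with earlier results of these data known, so their counts are descriptions.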

Additional observations from a re-analysis of the deposited data

Results flagged for a closer look

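Of 27 sets of 6 pigs examined (9 probe sets in 3 diets), 2 held a pig far from the others of its group, and chance alone gives about 1 in 20. NOSTRIN in IM5 replicate 5 was 5.61, and its gap to the next pig was 0.702 of the range of the group. TEK in IM5 replicate 4 was 7.38, with a gap of 0.65 of the range. The mean of NOSTRIN also differed between the insect meal groups, above that of group CON in group IM10 and below it in group IM5. The difference of IM10 against CON did not pass the test (0.13, exact p = 0.299). That of IM5 against CON did not meet the criteria without IM5 replicate 5. The difference of IM10 against IM5, which is the difference between their contrasts with the same CON pigs, was 0.52 (two-sided exact permutation p = 0.00433, adjusted limma p = 0.881), and 5 of 6 pigs of group IM10 lay above all pigs of group IM5.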

How the results depend on the processing

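With any 1 pig left out, the number of marker genes that met the criteria ranged from 0 to 2 in IM10 against CON and from 1 to 2 in IM5 against CON, and the number with a trend from 1 to 3. The methods' t-test left 1 in IM5 against CON, and 320 of all probe sets there. Leaving out dim probe sets gave 218, 209 and 175 of the probe sets kept in IM10 against CON, IM5 against CON and IM10 against IM5, beside 526, 488 and 404 of all. Fewer probe sets were tested in that setting. With array medians subtracted, 2 pairs of genes correlated with an adjusted permutation p under 0.05, beside 0, and the cause was not tested. Differences near 0 changed sign. CLEC4G in IM5 against CON was -0.0083 with array medians subtracted, and CLDN5 in IM10 against IM5 was 0.0035 after quantile normalization. With 1 pig left out, the ranges that crossed 0 were -0.052 to 0.028 for CLDN5, -0.057 to 0.017 for KDR, -0.027 to 0.065 for PECAM1 and -0.15 to 0.0043 for STAB2 in IM10 against IM5. They were -0.016 to 0.077 for PECAM1 in IM10 against CON, and -0.027 to 0.053 for PECAM1 and -0.032 to 0.038 for CLEC4G in IM5 against CON. With the replicate number as a block, 1, 2 and 1 marker genes met the criteria in IM10 against CON, IM5 against CON and IM10 against IM5, as without it, beside 609, 559 and 450 of all probe sets. CLEC4G in IM10 against IM5 then had a limma p of 0.0726, and the replicate block changed no other side of the threshold. No source says that a number marks a shared pen or batch, and deviations of pigs of different diets correlated between -0.144 and 0.201 (mean 0.035) with the same number and between -0.153 and 0.195 (mean -0.0070) with other numbers, so the numbers were not taken to pair the pigs. Of the differences of single genes under alternatives other than leaving out a pig, 162 kept direction and side of the threshold, 3 lost the p under 0.05, 1 gained it and 2 changed sign.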
